A study of Mus musculus with 6 samples.

Results

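The integrated stress response and endoplasmic reticulum (ER) chaperone genes described here are Atf4, Ppp1r15a and Hspa5. They were chosen by gene symbol, and each matches 1 row, so they are 3 of the 637 genes of the deposited expression table. RNA was sequenced from the hippocampus of C57BL/6 mice aged 56 days, with no other allele or agent given in the labels. The 3 ischemia samples followed focal middle cerebral artery occlusion (MCAO), which cuts off blood to much of one hemisphere and models stroke, and the 3 sham samples followed a sham operation, the surgery without the blockage. Both groups are titled 2 h, whose meaning (duration of blockage or delay until sampling) is not stated, and the labels do not say whether samples came from separate mice or whether animals were pooled. The table gives 1 mean of normalised reads per gene and group with no standard deviation, and its p-values reflect variation between samples that may be technical. Its columns are headed M2 and S2. These were read as MCAO and sham from their initials, and every direction below rests on that reading.

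The integrated stress response lowers protein synthesis when kinases phosphorylate the translation initiation factor eIF2 on its alpha subunit. Under that brake a few mRNAs with upstream open reading frames, among them Atf4, are translated better, and the ATF4 protein switches on genes of amino acid supply and stress adaptation. Ppp1r15a encodes GADD34, which brings protein phosphatase 1 to eIF2 and so ends the response. Hspa5 encodes BiP, the main HSP70 chaperone of the ER lumen, which binds the sensors of the unfolded protein response and is induced when unfolded proteins accumulate. In the brain, arrest of protein synthesis after ischemia is a textbook setting of this pathway. The table measures RNA, and neither translation nor phosphorylation was measured.

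The promoters of the members are shown because all 3 genes were called as higher in ischemia. The RefSeq windows of the build GRCm38.p6 run from 250 bases before to 50 bases after the annotated start, and all 3 symbols matched 1 window. Coordinates are of that build, which is not that of the annotation that was counted. The windows are Hspa5 on the plus strand at chr2:34771840-34772139, Ppp1r15a on the minus strand at chr7:45526219-45526518 and Atf4 on the plus strand at chr15:80254934-80255233. Capitals mark matches, on either strand, to the 7 motifs searched.
Hspa5: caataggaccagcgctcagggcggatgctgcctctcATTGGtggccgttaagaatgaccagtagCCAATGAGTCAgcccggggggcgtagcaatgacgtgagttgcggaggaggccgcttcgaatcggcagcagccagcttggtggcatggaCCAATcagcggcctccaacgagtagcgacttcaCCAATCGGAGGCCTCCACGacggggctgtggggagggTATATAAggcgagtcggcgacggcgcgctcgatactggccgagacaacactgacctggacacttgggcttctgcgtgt
Ppp1r15a: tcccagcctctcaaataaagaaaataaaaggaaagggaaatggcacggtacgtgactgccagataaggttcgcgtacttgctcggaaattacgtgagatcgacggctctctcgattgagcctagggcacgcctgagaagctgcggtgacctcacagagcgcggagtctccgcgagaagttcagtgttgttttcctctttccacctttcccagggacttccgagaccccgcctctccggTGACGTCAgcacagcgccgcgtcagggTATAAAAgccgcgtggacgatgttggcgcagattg
Atf4: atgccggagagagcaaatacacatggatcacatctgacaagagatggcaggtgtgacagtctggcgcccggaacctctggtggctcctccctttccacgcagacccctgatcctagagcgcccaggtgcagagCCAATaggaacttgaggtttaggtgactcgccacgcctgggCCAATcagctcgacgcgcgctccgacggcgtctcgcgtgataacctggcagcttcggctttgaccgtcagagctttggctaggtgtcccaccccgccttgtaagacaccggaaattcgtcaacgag

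The ER stress response element, CCAAT and CCACG separated by 9 bases, is the known binding site of NF-Y and ATF6. It was found once in the Hspa5 window, 65 to 47 bases before the start, and in 0.119% of the 32851 windows of the RefSeq table. The Hspa5 window also held 4 CCAAT boxes (CCAAT, in 37.4% of windows), 1 of them inside the ER stress response element, and 1 AP-1 site (TGANTCA, in 7.81%), which shares its first base with a CCAAT box. A TATA box (TATANAA, in 11.3% of windows) stood 28 to 22 bases before the Hspa5 start. The Ppp1r15a window held 1 full cyclic AMP response element (TGACGTCA, in 1.79% of windows), 12 to 5 bases before the annotated start, and 1 TATA box 16 to 22 bases after it. The Atf4 window held 2 CCAAT boxes and none of the other motifs searched. The C/EBP-ATF element, a known site of ATF4 (TGATGNAA, in 3.97% of windows), and the ATF6 element TGACGTGG (in 0.676%) were in none of the 3 windows. Only exact matches to these letters were searched, with N as any base, so variants of the elements are not counted. A match is a run of letters and not a measured binding site, and no match says nothing of binding elsewhere.

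Upstream start codons, the feature behind selective translation, were counted in GENCODE M21 in the transcript with the longest coding sequence of each gene. Atf4-201 has 3 upstream ATG codons in a 5′ leader of 594 bases, and 1 of their reading frames overlaps the ATF4 start. Ppp1r15a-201 has 3 in a leader of 283 bases, and all of their reading frames close before the main start. Hspa5-201 has 1 in a leader of 270 bases. Of 21549 protein-coding genes treated in the same way, 49.5% have at least 1 upstream ATG, 29.9% have 2 or more, and 16.6% have an upstream frame that overlaps the main start.

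The question of the comparison was which transcripts differed between ischemia and sham. The authors' deposited table lists 637 genes with an adjusted p-value of 0.0499 or less. The p-values imply that 28319 genes were tested, so that 2.25% were called in either direction, 1.47% as higher and 0.784% as lower in ischemia. All 3 members were called as higher; they were chosen with that known, so nothing is read from this count. A gene that is not listed has no level here. If it was tested, its p-value was above about 0.00112, the limit of a call, and this shows neither that it was silent nor that it was unchanged.

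Ppp1r15a, the phosphatase subunit that restores translation, had the largest fold of the 3 and the smallest difference in level. Its mean was 2229.9 normalised reads in ischemia and 569.5 in sham in the authors' deposited table, which is 3.92-fold higher (log2 fold change 1.97, adjusted p = 8.51e-18). By p-value it stood at place 21 of the 637 listed genes, and by fold at place 102 of the 415 higher ones. Its mean rests on 5596 to 8059 whole reads over the ischemia libraries and 1494 to 2050 over the sham libraries, and counting error alone gives a 95% interval of 3.71- to 4.13-fold. Leaving out 1 sham library in turn gave log2 fold changes from 1.39 to 3.24 over the possible splits of the sham mean into libraries described next. The highest was without library A of the last split given there. The sign of these values was fixed in advance, because leaving out 1 of 3 libraries cannot reverse a 3.92-fold difference. Of the 121 higher genes with a sham mean within 2-fold of that of Ppp1r15a, 24 had a larger fold, and the median of the 121 was 2.03-fold. The rise was thus above that of most called higher genes with a like number of reads, a description that covers called genes only.

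The sham mean of Ppp1r15a was split into whole reads of its libraries as far as its digits allow. In sham, 4 sets of whole counts return the mean. In the most even set the libraries, lettered A to C by size factor, had 508, 608 and 694 reads, or 581, 549 and 578 normalised reads, so that the highest was 1.06 times the lowest. The other sets give 538, 1088 and 82.5, then 624, 9.94 and 1074, and then 1236, 329 and 143 normalised reads. The digits do not tell these sets apart. In none of them did a sham library exceed 1236 normalised reads, and the ischemia mean was 1.80 times that value. That the ischemia mean lies above each sham library was fixed in advance and is no sign of separation. No library can exceed 3 times the mean of 3 libraries, and the fold was 3.92. The libraries cannot be linked to the replicate numbers, and the ischemia libraries were not separated for any member. Overlap between single samples of the groups is therefore unknown.

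**Figure D1:**
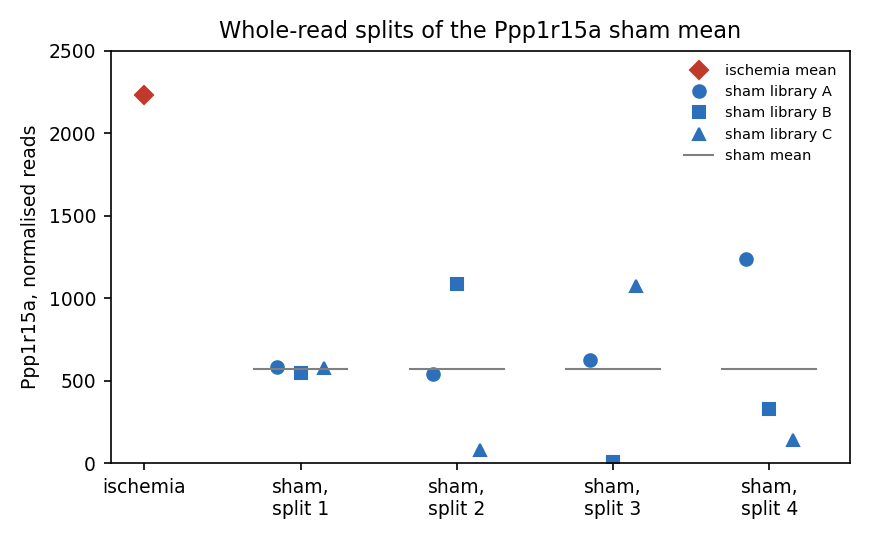
Normalised reads of Ppp1r15a, with the authors' ischemia mean as a diamond on the left and the 3 sham libraries of each of the 4 possible whole-read splits to its right; grey lines mark the authors' sham mean. The ischemia mean of 2229.9 lies above every sham library in every split, the highest of which is 1236. This was fixed in advance, because no library can exceed 3 times the mean of 3 libraries and the fold was 3.92.

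Atf4, the transcription factor at the centre of the pathway, had a mean of 9808 normalised reads in ischemia and 5409 in sham in the authors' deposited table. It was 1.81-fold higher (log2 fold change 0.86, adjusted p = 0.000869 in the authors' deposited table). It stood at place 202 of 637 by p-value and at place 255 of 415 by fold. The counting interval was 1.78- to 1.85-fold. Among the 86 higher genes with a sham mean within 2-fold of its own, 38 had a larger fold and the median was 1.64-fold, so the rise of Atf4 was near the middle of called higher genes with a like number of reads. The difference in level, ischemia minus sham, was 4399 normalised reads for Atf4, 1660.4 for Ppp1r15a and 6269 for Hspa5. Per kilobase of transcript this difference was 2550.3 for Atf4. For Ppp1r15a it was 712 with Ppp1r15a-201, or 591 with Ppp1r15a-202. For Hspa5 it was 1707 with Hspa5-201, or 2399 with Hspa5-202.

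Hspa5, the ER chaperone, had the smallest fold of the 3 and the highest sham level per kilobase. Its mean was 18570.0 normalised reads in ischemia and 12301 in sham in the authors' deposited table, which is 1.51-fold higher (log2 fold change 0.59, adjusted p = 0.00982). It stood at place 360 of 637 by p-value, at place 354 of 415 by fold and at place 15 of 637 by sham mean. The counting interval was 1.49- to 1.53-fold. Among the 33 higher genes within 2-fold of its sham mean, 19 had a larger fold and the median was 1.58-fold. The order of the folds, Ppp1r15a above Atf4 above Hspa5, is the reverse of the order of their sham levels per kilobase, and differences between the members' folds were not tested because spreads per sample are not given.

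**Figure D2:**
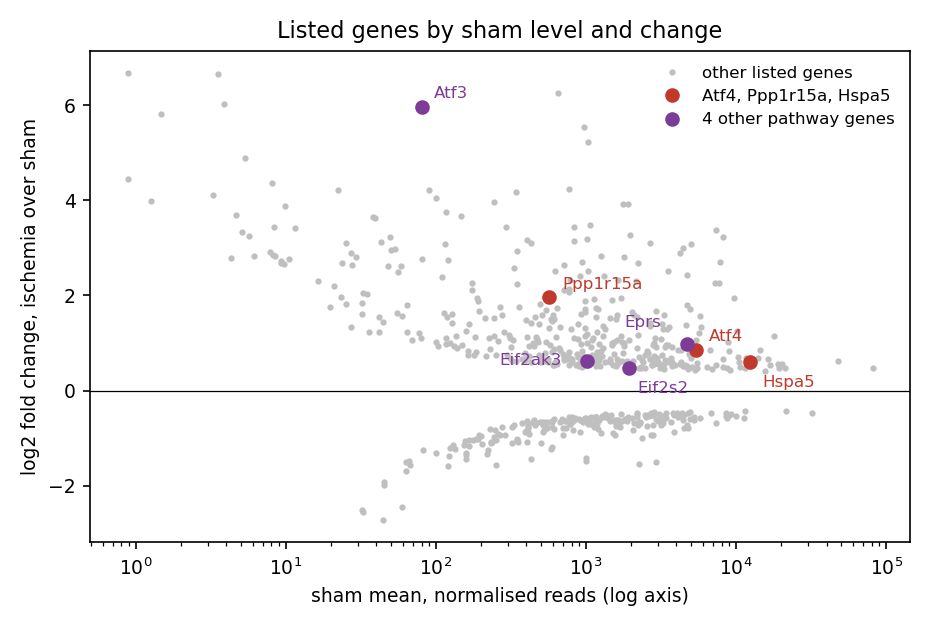
The log2 fold change of ischemia over sham against the sham mean on a log axis, for the 635 listed genes with a sham mean above 0; red points are the members and purple points the 4 other pathway genes. Ppp1r15a lies at 1.97, Atf4 at 0.86 and Hspa5 at 0.59, and Atf3 stands far above them at 5.97.

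Per kilobase of transcript, the level of Ppp1r15a was 956 normalised reads in ischemia and 244 in sham with Ppp1r15a-201. With the longer Ppp1r15a-202, which has the same coding length, the level was 794 in ischemia and 203 in sham. That of Atf4 was 5686 in ischemia and 3136 in sham. The level of Hspa5 was 5057 in ischemia and 3349.8 in sham with Hspa5-201, and 7107 in ischemia and 4707 in sham with the shorter Hspa5-202, which has the same coding length. Ppp1r15a was therefore the scarcest of the 3 in both groups, while the order of Atf4 and Hspa5 in ischemia depends on the transcript chosen. No other GENCODE M21 gene shared a stretch of at least 100 bases at 90% identity or more with the transcripts of the members. The exons of Atf4 and Hspa5 overlap those of no other gene, and an exon of Ppp1r15a overlaps the opposite-strand gene Tulp2 by 12 bases.

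The other genes of the pathway were looked up in 8 lists with 139 genes, all of whose symbols are known to the reference. Of these, 7 were higher, 0 were lower and 132 are not listed in the authors' deposited table. The 7 are 5.04% of the lists, against 2.25% of all tested genes, but the 3 members and Atf3 were known to be called when the lists were written. Of the other 135 genes, 3 were called, or 2.22%, which is no more than the share among all tested genes. The median of the 7 called pathway genes was 1.81-fold, and that of all 415 higher genes was 2.10-fold. The 54 rows without a symbol could not be matched to any list.

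**Figure D3:**
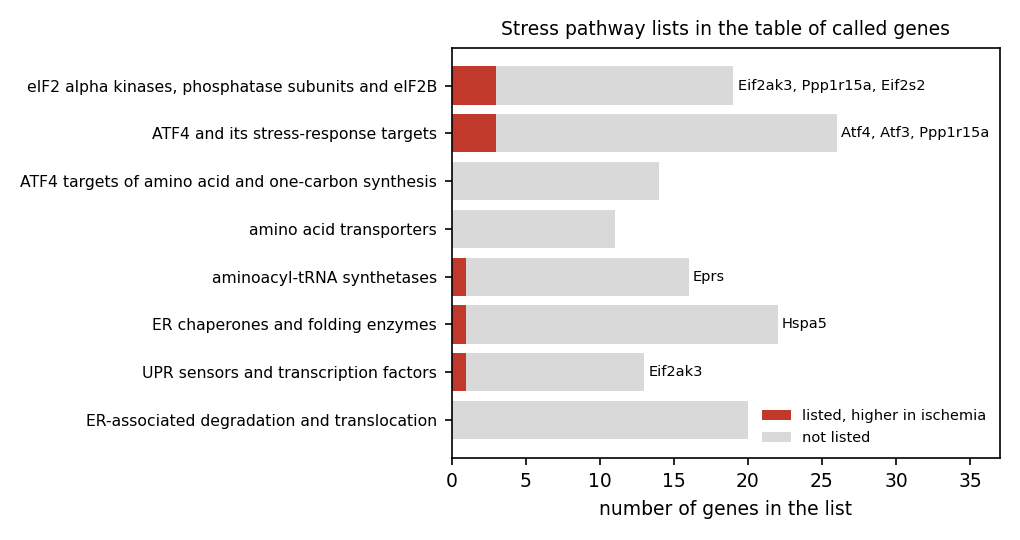
Number of genes in each of the 8 pathway lists, with listed genes in red and genes not listed in grey; the names of the listed genes stand at the right. Ppp1r15a and Eif2ak3 each belong to 2 lists, all listed genes were higher in ischemia, and 3 of the lists have no listed gene.

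Upstream of ATF4, the list of eIF2 kinases, eIF2 and eIF2B subunits and phosphatase subunits had 3 higher genes of 19, or 15.8%. Among all tested genes 1.47% were called as higher, and Ppp1r15a was known to be called when the list was written. Nothing is therefore read from the count. Eif2ak3, which encodes PERK, the ER-resident eIF2 kinase, had a mean of 1561 normalised reads in ischemia and 1012 in sham in the authors' deposited table, 1.54-fold higher (adjusted p = 0.0475). Eif2s2, which encodes the beta subunit of eIF2, had 2663 normalised reads in ischemia and 1930.4 in sham in the authors' deposited table, 1.38-fold higher (adjusted p = 0.0469). Both adjusted p-values lie just inside the threshold of 0.05. An exon of Eif2ak3 overlaps an opposite-strand gene by 221 bases in GENCODE M21, and the use of strand in counting is not stated in these sources. The kinase genes Eif2ak1, Eif2ak2 and Eif2ak4, the constitutive phosphatase subunit Ppp1r15b, and Eif2s1, which encodes the phosphorylated subunit itself, are not listed.

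In the list of ATF4 and its stress-response targets, 3 of 26 genes were higher, or 11.5%, against 1.47% of all tested genes. These are Atf4, Ppp1r15a and Atf3, all known to be called when the list was written, so nothing is read from the count. The transcription factor Atf3 is both an ATF4 target and an immediate-early gene. It had 5027 normalised reads in ischemia and 80.3 in sham in the authors' deposited table (log2 fold change 5.97, adjusted p = 1.20e-33). Its sham mean has 1 whole-read solution, 79, 80 and 94 reads, or 90.4, 72.3 and 78.3 normalised reads in libraries A to C, so that the ischemia mean was 55.6 times the highest sham library. Ddit3, which encodes the death-promoting factor CHOP, and Trib3, which encodes a pseudokinase that restrains ATF4, are not listed. Atf5, Chac1, Sesn2 and Ddit4 are not listed either.

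Of 41 genes of amino acid synthesis, transport and tRNA charging, many of them known ATF4 targets, 1 is listed, or 2.44%, a share near the 2.25% of all tested genes. Of 14 genes of amino acid and one-carbon synthesis, among them Asns, which encodes asparagine synthetase, and Psat1, Phgdh and Mthfd2, 0 are listed. Of 11 amino acid transporter genes, among them Slc7a11 and Slc3a2, 0 are listed. Of 16 genes of aminoacyl-tRNA synthetases and tRNA export, 1 is listed. This is Eprs, which encodes the synthetase that charges glutamate and proline tRNAs, at 9220.0 normalised reads in ischemia and 4674 in sham in the authors' deposited table, 1.97-fold higher (adjusted p = 2.73e-10). Eprs has 0 upstream ATG codons in its GENCODE leader, whereas Eif2ak3 has 3.

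In the ER branch, Hspa5 was the 1 listed gene of 22 ER chaperones and folding enzymes, or 4.55%, beside 2.25% of all tested genes. Its call was known when the list was written, so nothing is read from the count. Its partners Hsp90b1, Calr, Pdia4, Dnajb9, Dnajc3 and Hyou1 are not listed. Of 13 genes of sensors and transcription factors of the unfolded protein response, Eif2ak3 is listed, while Ern1, Atf6 and Xbp1 are not. Of 20 genes of ER-associated degradation and translocation, among them Herpud1, Edem1 and Sel1l, 0 are listed. The table holds total reads per gene, so splicing of Xbp1 RNA could not be examined.

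**Figure D4:**
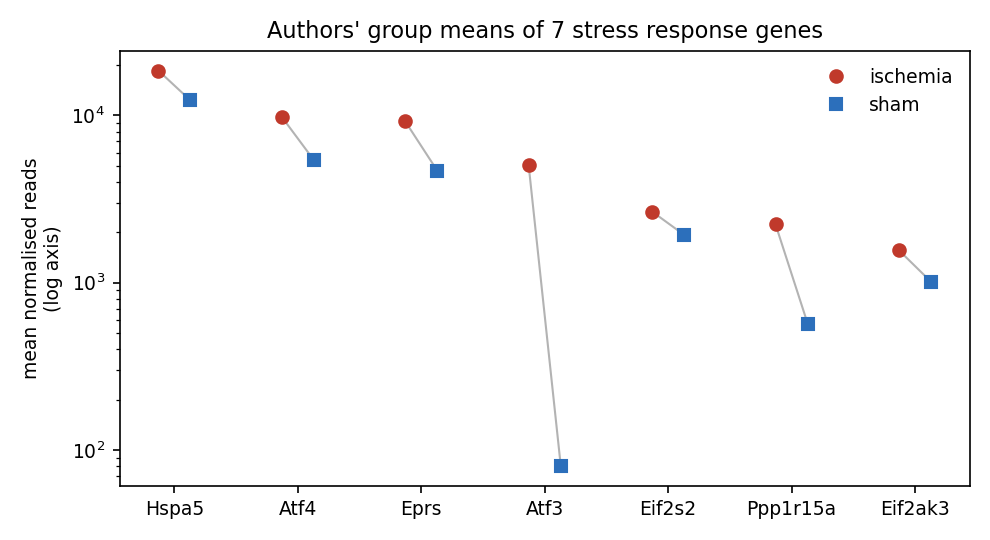
Authors' group means of normalised reads on a log axis for the 7 called pathway genes, with ischemia as red circles on the left and sham as blue squares on the right of each gene. Each line joins the 2 means of 1 gene, and the steepest lines are those of Atf3 and Ppp1r15a; heights are not corrected for transcript length.

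Families related to the members were described in the same way, beside the 1.47% of all tested genes that were called as higher. Of 15 HSP70 family genes 3 were higher: Hspa5 and the cytosolic nucleotide exchange factors Hspa4 and Hsph1. All 3 were known to be called when the list was written, so nothing is read from the count. Hspa4 had 18153 normalised reads in ischemia and 11787 in sham, and Hsph1 had 26165 in ischemia and 14478 in sham, in the authors' deposited table (1.54- and 1.81-fold). The stress-inducible cytosolic genes Hspa1a and Hspa1b are not listed. Of 18 ATF and CREB family genes 3 were higher, Atf4, Atf3 and Crem, the last at 1966 normalised reads in ischemia and 796 in sham in the authors' deposited table (2.47-fold, adjusted p = 3.32e-11). Atf4 and Atf3 were known to be called when that list was written, so nothing is read from this count either. An exon of Crem overlaps an opposite-strand gene by 369 bases in GENCODE M21.

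Genes most like each member were found by distance between the log2 means of the groups, which are 2 values per gene. Nearest to Atf4 were Syt4, a synaptic vesicle protein gene (distance 0.22), and Eprs (0.23). Nearest to Ppp1r15a were Arid5a, an RNA-binding protein gene (0.17), and Coq10b, a coenzyme Q-binding protein gene (0.35). Nearest to Hspa5 were Hspa4 (0.07) and Nap1l5, a nucleosome assembly protein gene (0.09). Arid5a had 2128 normalised reads in ischemia and 635 in sham, and Nap1l5 had 18565 in ischemia and 11544 in sham, in the authors' deposited table. Over 2 means, many genes lie close by arithmetic alone.

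Cell type markers bear on all of these values. The tissue label could not be checked, because only called genes have levels. Of 11 markers of hippocampal neurons 1 is listed, or 9.09%, against 2.25% of all tested genes. This is Dsp, at 1027 normalised reads in ischemia and 2911 in sham in the authors' deposited table. Both marker lists were chosen with earlier results of these data known, so nothing is read from their counts. Of 16 markers of glia, vessels and blood cells 3 are listed, or 18.8%, all higher. Among them, the neutrophil genes S100a8 and S100a9 had 71.1 and 59.6 in ischemia and 10.5 and 4.64 in sham, in the authors' deposited table. These levels are low, and the sham means rest on 27 to 38 whole reads for S100a8 and 12 to 17 for S100a9. In bulk tissue a change in the share of a cell type and a change in RNA per cell cannot be told apart. The part of these cell types in the values of Atf4, Ppp1r15a and Hspa5 was not tested.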

How the data were processed

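RNA was extracted with Trizol and sequenced with Illumina libraries, per the labels' protocols. The submitters' processing notes name Bowtie 0.12.2 and the build mm8 with no role, while gene identifiers carry a prefix of the BALB/cJ strain annotation, per the file headers and identifiers. Counter, strand use, scaling and test are not stated in these sources. For each called gene the authors deposited a read signal (mean normalised reads of a group), the log2 fold change, and the p-value before and after adjustment. The log2 fold change equals the log2 ratio of the deposited means to within 5.0e-05. With 0 columns of per-sample values, planned tests on samples were not run.

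The number of tested genes was the one whose Benjamini-Hochberg adjustment returned the deposited adjusted p-values in 636 of 637 rows. Size factors were recovered by lattice reduction of the 12 lowest means of each group, in which each library adds its whole counts times 1 fixed step. They lay between 0.837 and 1.20. Each mean up to 450 had at least 1 whole-count solution within the tolerance. That was 0.6 of the last digit plus an allowance for error in the steps, which grows with the mean. The procedures were tested on simulated data, the splitting of means only below the range of the Ppp1r15a sham mean, which also lies above 450. Counting errors are Poisson, assume equal levels in the libraries of a group, leave out the spread between samples, and are too small for PCR reads without molecular identifiers. Absolute depth is unknown. Named genes are the members, every listed gene of the fixed lists, Ddit3, Trib3 and Asns, and the 2 nearest genes of each member; some genes that are not listed were named as examples, and 1 marker that the rule names is not reported here. The members and lists were chosen with earlier results of these data known. Promoters are from RefSeq, and transcripts and exons from GENCODE M21 (GRCm38). Python 3.11.15, numpy 2.4.6, scipy 1.17.1, sympy 1.14.0, matplotlib 3.10.9 and BLAST were used.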

Additional observations from a re-analysis of the deposited data

How the results depend on the processing

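No paired analysis was possible because the deposited columns are group means and carry no replicate numbers. The values are the authors' calls, so a stricter rule could only remove them. At an adjusted p-value of 0.001 Hspa5 (log2 fold change 0.59) was no longer called. With a Bonferroni correction of the p-values of the authors' deposited table Atf4 (0.86, adjusted p = 0.176, computed from the authors' deposited table) and Hspa5 (0.59, adjusted p = 1) were no longer called. Ppp1r15a was still called (adjusted p = 1.79e-16, computed from the authors' deposited table). A minimum change of 1 on the log2 scale removed Atf4 (0.86) and Hspa5 (0.59) and left 2 of the 7 higher pathway genes, Ppp1r15a and Atf3. An adjusted p-value of 0.01 left 5 of the 7, without Eif2ak3 and Eif2s2, and a mean of at least 50 left 7; the count of lower pathway genes was 0 under each rule. A pseudocount of 10 gave Ppp1r15a a log2 fold change of 1.95 and left 0.86 for Atf4 and 0.59 for Hspa5. Leaving out each sham library in turn, over all 4 whole-read splits, gave Ppp1r15a log2 fold changes from 1.39 to 3.24. The highest was without library A of the split with 1236 normalised reads there, and the most even split gave 1.94 to 1.98. These are values with no test. Their sign was fixed in advance, because leaving out 1 of 3 libraries cannot reverse a 3.92-fold difference. Leaving out ischemia libraries, or any library for Atf4 and Hspa5, was not run, because those means were not split into whole reads. The separation of reads was chosen after the data were seen.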
